A study of Penicillium oxalicum with 72 samples.

Results

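The 114 genes described here were tabulated as transcription factors (TFs) of the fungus *Penicillium oxalicum*, and their transcripts were most abundant in mycelium kept on glucose (GLU) or wheat bran (WB). They were taken from the 283 genes of that table, among 9821 genes listed in at least 1 library. A gene was kept when, of the mean levels in 24 conditions, the highest belonged to a GLU or a WB condition and was at least 1 FPKM (a fragment count divided by transcript length and by the library's mapped fragments), and 15 genes set apart by name were left out, *BrlA*, *XlnR*, *ClrB* and *AmyR* among them. The members were therefore chosen on the measured levels, and that they were high on GLU or WB is a description and not a result. Of the rest of the 283 genes, 86 were highest in medium with no carbon source (NC) and 66 were highest on 1 of the 3 cellulosic substrates.

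All libraries came from Δ*PoxKu70*, a strain lacking the Ku70 protein of non-homologous end joining, so the deletion was shared by every group. Mycelium grown on glucose was moved, about 1 g of hyphae into 100 mL of medium, and kept at 28 °C and 180 rpm. The medium held 1% (w/v) GLU, WB, Avicel (AV, a microcrystalline cellulose), methyl cellulose (MC) or 2-hydroxyethyl cellulose (HEC), or, as the control, no carbon source (NC). RNA was sequenced from mycelium harvested 4, 12, 24 and 48 h after the transfer, with 3 replicates in each of the 24 conditions and 72 libraries in all.

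A TF binds DNA and raises or lowers the transcription of its target genes. In filamentous fungi the largest family is that of the Zn2Cys6 zinc cluster proteins, found almost only in fungi, followed by C2H2 zinc finger and basic leucine zipper (bZIP) proteins. Several of these factors switch on genes for plant cell wall degradation or for the use of a particular nutrient, while easily used sugars such as glucose hold many such genes down through carbon catabolite repression. The tabulated set is wider than this: by their annotations, 11 of the members belong to protein turnover and translation, 6 to the general transcription and chromatin machinery, and 12 are other proteins with a zinc finger or winged helix domain.

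The deposited values were FPKM, which divide by transcript length, so levels of different genes were compared only on this per-length scale. FPKM summed to between 924393 and 1255914 per library, and between 9243 and 9568 genes were listed. The median difference of a library from its 2 companion replicates over the members was 0.049 to 0.38 on the log2 scale, and 4 libraries reached 0.3: AV 12 h replicates 1 and 3, GLU 24 h replicate 3 and NC 4 h replicate 3. Without GLU 24 h replicate 3, 112 genes met the rule and 10 instead of 13 were highest at GLU 24 h, and leaving out each of the other 3 libraries gave 113 or 114. The submitters' long name for the HEC libraries names methyl cellulose, and 1 NC 24 h library is titled as 4 h in words, so both were grouped by their short codes. Genes of asexual spore formation (conidiation), a list of 12 with the regulators *BrlA* and *AbaA* and the pigment gene *Alb1*, summed to 136 to 284 FPKM in every 4 h library. At 48 h their sums were 8186 to 8671 FPKM on GLU, 9851 to 10235 on WB, 14147 to 17934 on AV, 7562 to 9522 on MC, 18765 to 23493 on HEC and 18830 to 27767 in NC, so the mycelium differed in this respect between times and carbon sources. In such bulk RNA, fewer cells of a type and less RNA per cell cannot be told apart, and the part of the conidiation genes in the results below was not tested.

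The 114 members were divided evenly, 57 highest on GLU and 57 highest on WB. On GLU the highest condition was 4 h for 12 genes, 12 h for 10, 24 h for 13 and 48 h for 22. On WB it was 4 h for 14, 12 h for 4, 24 h for 22 and 48 h for 17. Highest means had a median of 42.1 FPKM on GLU (2.06 to 4135) and of 58.8 FPKM on WB (2.27 to 3011). Having a GLU or WB maximum was no rarity in this series: 4504 of the 9380 genes with a highest mean of at least 1 FPKM had one (48.0%), against 116 of 281 genes of the TF table (41.3%). The ratio of each member's highest to its lowest condition mean, both with 1 FPKM added, had a median of 4.74 (2.07 to 60.8). The tabulated genes had been listed at a log2 fold change of at least 1 against NC in these data. Such a range was therefore largely fixed in advance, and the share of 41.3% is likewise that of a preselected list.

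**Figure D1:**
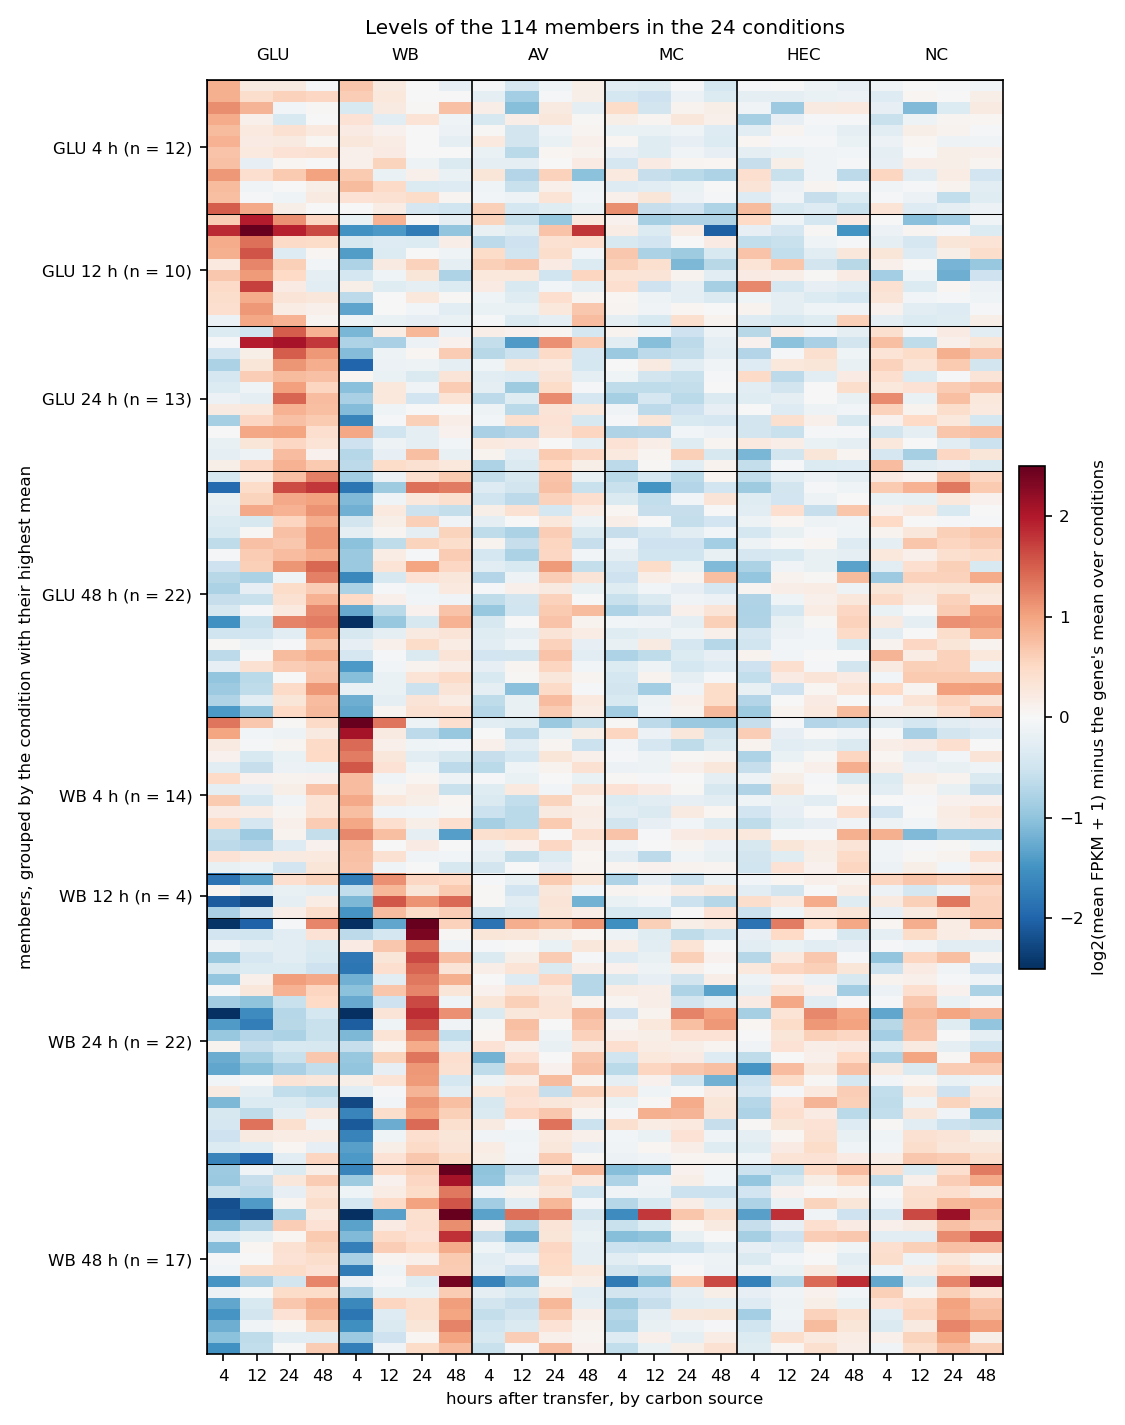
Mean level of each of the 114 members in the 24 conditions, 1 row per gene and 1 column per condition, coloured by the level on the log2(FPKM + 1) scale relative to the gene's own mean over all conditions. Rows are ordered by the condition in which the gene was highest, so the darkest red cells run along the GLU and WB columns by construction, and the 22 genes highest at GLU 48 h and the 22 highest at WB 24 h form the largest blocks.

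For most members the lead over the other substrates was small. The margin, the highest mean over the best mean on AV, MC, HEC or NC with 1 FPKM added to both, had a median of 1.31 (1.33 for genes highest on GLU, 1.25 for those highest on WB). It was at least 2 for 10 genes, at least 1.5 for 32 and under 1.1 for 23, and its maximum was 11.7. All 3 libraries of the highest condition lay above all 48 libraries on AV, MC, HEC and NC for 69 members, while 57.2% of all genes highest on GLU or WB had such a lead. The best other condition was an NC one for 53 members, most often 24 h (21) or 48 h (16), an AV one for 28, an HEC one for 20 and an MC one for 13. Times of the maximum, margins and these counts hold for the deposited values and are not given after rescaling. Median-of-ratios scaling factors, higher where a typical gene had higher FPKM, were 1.28 to 1.31 at GLU 48 h and 1.21 to 1.32 at NC 24 h. At HEC 4 h they were 0.71 to 0.79.

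Just inside the rule stood the Zn2Cys6 genes *POX07543* (20.72 FPKM at GLU 48 h and 20.71 at MC 48 h) and *POX07901* (30.94 at WB 24 h and 30.74 at NC 12 h). Just outside stood *POX06701* (85.40 at WB 24 h and 85.61 at AV 24 h) and *POX08522* (36.06 at GLU 24 h and 36.22 at NC 48 h). At the level threshold, *POX03407* (2.06 FPKM) and *POX09460* (2.27 FPKM) were the lowest members kept, and *POX01363* (0.927 FPKM) and *POX02083* (0.36 FPKM) were left out. The rule thus divided genes whose levels on its 2 sides were nearly equal.

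**Figure D2:**
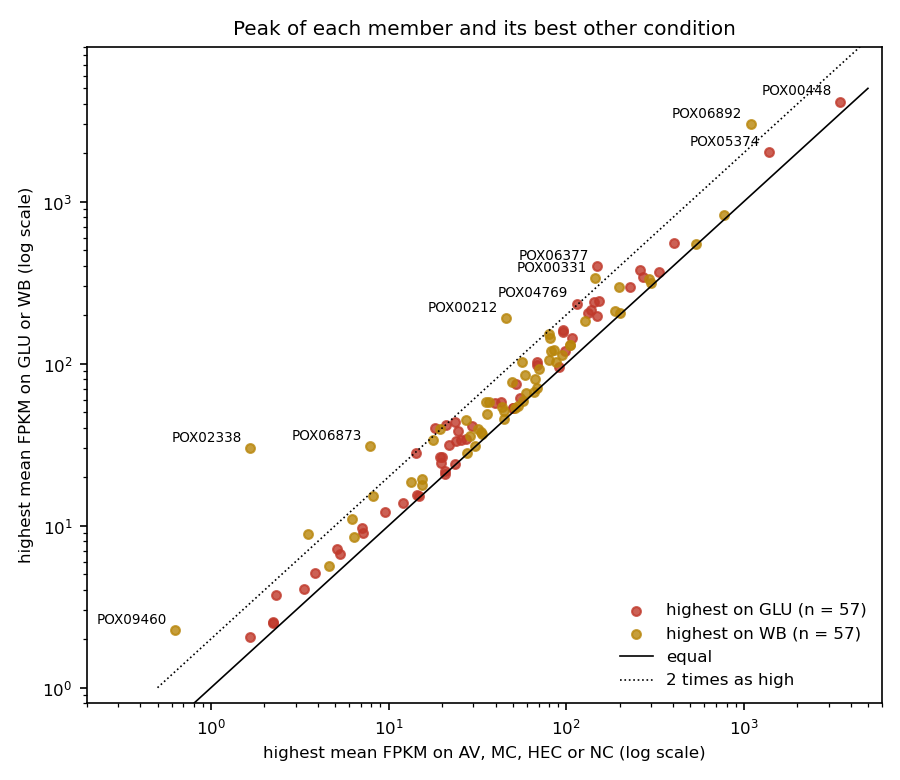
Highest mean FPKM on GLU or WB of each of the 114 members (vertical) against its highest mean FPKM on AV, MC, HEC or NC (horizontal), both on log axes, coloured by the substrate with the maximum. The solid line marks equal levels and the dotted line marks 2 times the level; most points lie between them, and *POX02338* lies farthest above.

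The 10 genes with a margin of at least 2 included 3 with a short maximum on WB. *POX02338*, a bZIP gene, had 37.12, 30.67 and 22.7 FPKM in the WB 4 h libraries, against 0.62, 1.06 and 1.86 FPKM in the NC 4 h libraries. By WB 24 h its libraries held 1.11, 1.58 and 1.48 FPKM, and at 4 h the other media held 5.11, 5.74 and 5.86 FPKM on GLU and 1.33, 1.58 and 2.08 FPKM on MC. Its transcript was thus abundant at the first WB harvest and near 1 FPKM a day later.

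The Zn2Cys6 gene *POX00212* peaked later on WB. It had 7.11, 7.3 and 6.26 FPKM at WB 12 h, 198.87, 210.61 and 164.68 at WB 24 h, and 25.99, 28.01 and 29.35 at WB 48 h. The highest level outside WB was 39.36, 47.63 and 50.93 FPKM at HEC 12 h. The Zn2Cys6 genes *POX06872* and *POX06873*, with consecutive identifiers, were also highest at WB 24 h. Their positions in the genome were not checked. *POX06873* had 32.28, 38.55 and 22.28 FPKM there and 3.49, 3.83 and 3.48 FPKM at WB 12 h, and *POX06872* had 61.88, 63.86 and 47.76 FPKM at WB 24 h. For both, HEC 12 h was next among the other substrates, with 7.27, 7.64 and 8.73 FPKM for *POX06873* and 29.6, 34.62 and 42.15 FPKM for *POX06872*. Both genes therefore shared a maximum at 24 h on WB, as *POX00212* did. The other pair with consecutive identifiers, the homeobox gene *POX02204* (highest at GLU 4 h) and the Zn2Cys6 gene *POX02205* (highest at GLU 24 h), did not share one.

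**Figure D3:**
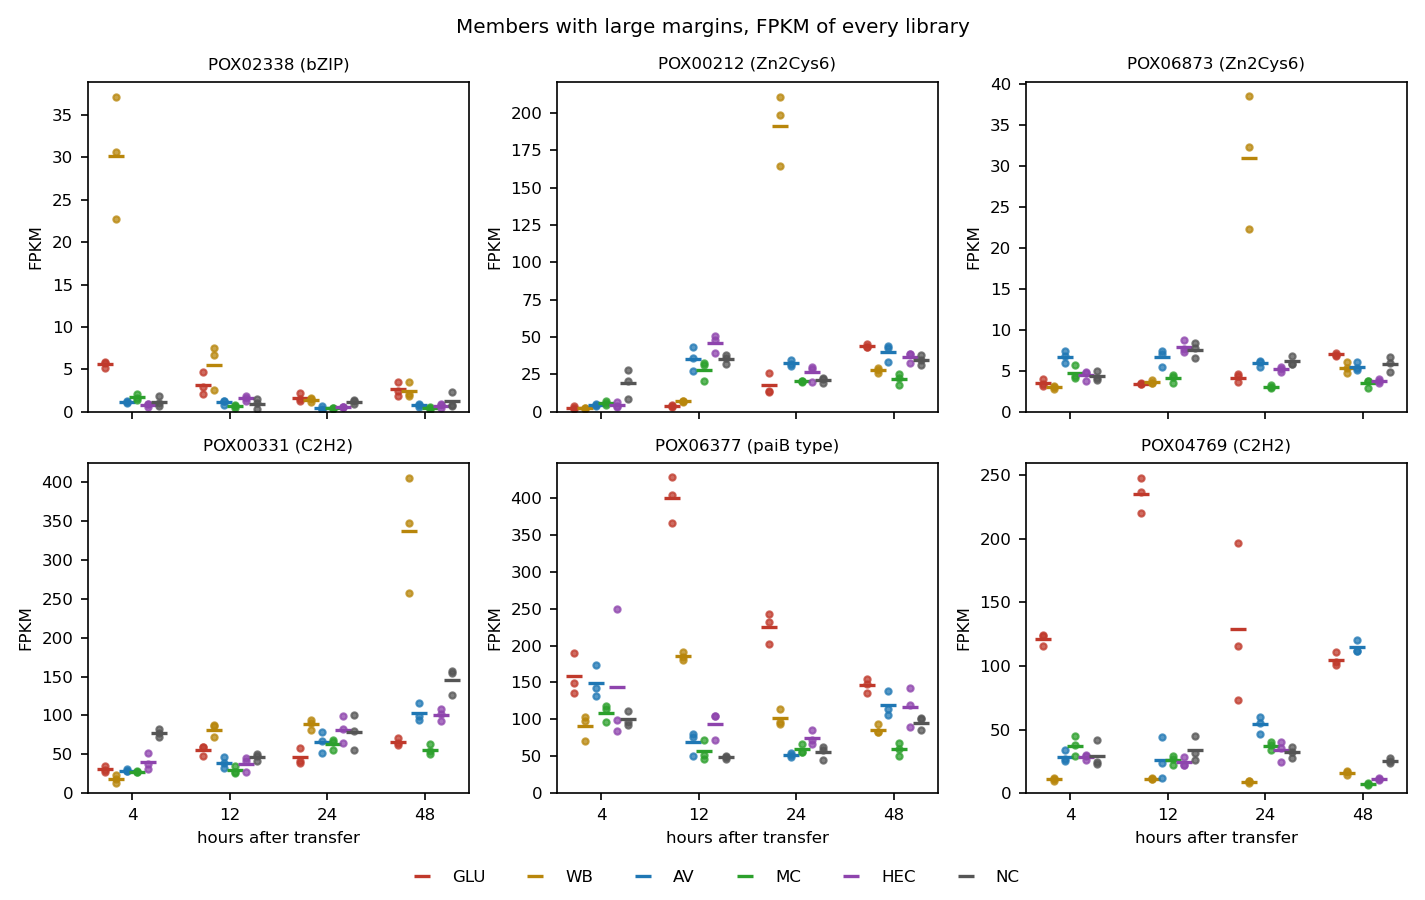
FPKM of 6 members (*POX02338*, *POX00212*, *POX06873*, *POX00331*, *POX06377* and *POX04769*) in every library against the hours after transfer, 1 panel per gene with its own axis from 0 and 1 colour per carbon source, points for libraries and dashes for the means of 3. *POX02338* stands out at WB 4 h only, *POX00212* and *POX06873* at WB 24 h only, and *POX04769* stays high at all times on GLU and is also high at AV 48 h.

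C2H2 genes supplied 8 members out of 34 in the table, 4 highest on each of the 2 substrates. *POX00331* had 257.88, 347.48 and 405.34 FPKM at WB 48 h, against 157.48, 126.39 and 154.54 FPKM at NC 48 h, and its 4 h libraries on AV, MC and HEC held 26.59 to 52.1 FPKM. *POX04769* had 220.49, 247.54 and 236.82 FPKM at GLU 12 h and 73.04 to 247.54 FPKM over all GLU libraries, against 111.96, 111.61 and 120.58 FPKM at AV 48 h, while every WB library lay between 8.08 and 17.52 FPKM. This gene thus separated GLU from WB at every time, with no overlap. *POX02452* was abundant on both kinds of substrate, with 818.24, 844.17 and 822.84 FPKM at WB 24 h, against 792.48, 802.95 and 716.92 FPKM at MC 12 h. *POX08375* reached 489.47, 426.59 and 746.48 FPKM at GLU 24 h, where replicate 3, a library apart from its companions, was the highest, against 367.91, 423.81 and 418.17 FPKM at NC 24 h.

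The bZIP family was represented by 10 of its 17 tabulated genes, 6 highest on GLU and 4 on WB. *POX00448* was the most abundant member of all, with 3985.34, 3690.48 and 4729.76 FPKM at GLU 24 h, although NC 12 h, with 3470.17, 3531.96 and 3506.6 FPKM, came close. *POX05374* followed with 2032.66, 1950.25 and 2048.17 FPKM at GLU 12 h, against 1278.35, 1459.15 and 1411.05 FPKM at HEC 12 h. *POX07854* had 349.77, 388.5 and 393.78 FPKM at GLU 12 h, against 259.26, 265.44 and 254.27 FPKM at AV 48 h. For each of these genes the second condition was the highest outside GLU and WB. Atf1 (*POX03016*), named after a stress-response factor of fission yeast, had 384.23, 637.57 and 622.17 FPKM at WB 48 h, against 597.07, 498.69 and 524.19 FPKM at NC 24 h, nearly the same mean. *POX01486*, a bZIP gene with a domain of Hap4, which in budding yeast activates respiratory genes, had 60.8, 59.91 and 51.15 FPKM at GLU 12 h, against 36.39, 34.14 and 48.51 FPKM at HEC 4 h. GLU 12 h was the highest condition of 4 of the 10.

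Zn2Cys6 genes made up 52 members of 143 tabulated, 25 highest on GLU and 27 on WB, mostly late (14 at GLU 48 h, 13 at WB 48 h and 10 at WB 24 h). *PrtT* (*POX03888*), known in *Aspergillus* as the activator of secreted protease genes, had 118.61, 94.96 and 93.59 FPKM at WB 12 h, against 46.93, 60.52 and 50.74 FPKM at NC 12 h and 79.41, 90.23 and 91.67 FPKM at NC 24 h, its best other condition, for a margin of 1.17. At GLU 12 h it had 6.59, 6.1 and 6.6 FPKM, so the 2 substrates that define the set differed widely for this gene. All 5 CENP-B type members (of 8 tabulated), proteins with a DNA-binding domain shared with transposases, were highest on WB, 4 of them at 24 h. *POX09691* had 208.8, 153 and 190.36 FPKM at WB 24 h, against 71.35, 75.85 and 83.52 FPKM at NC 24 h and 126.15, 130.96 and 124.15 FPKM at NC 12 h. *POX09800* had 99.77, 73.16 and 83.68 FPKM at WB 24 h, against 60.56, 58.88 and 56.04 FPKM at MC 48 h and 20.04, 23.19 and 21.88 FPKM at NC 24 h. Their margins over the best other condition were 1.44 and 1.45.

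Among proteins with other zinc finger or winged helix domains, 12 of 19 were members. *POX06377*, annotated as a regulator of the bacterial paiB type, had 403.88, 428.47 and 366.58 FPKM at GLU 12 h, against 50.37, 45.97 and 48.5 FPKM at NC 12 h. Its AV 4 h libraries held 173.31, 141.96 and 131.08 FPKM, and HEC 4 h was uneven with 249.29, 98.73 and 84.61 FPKM. *POX08922*, a CCHC zinc finger gene, had 281.94, 367.47 and 352.32 FPKM at WB 4 h, close to the 300.39, 309.28 and 272.47 FPKM at HEC 48 h with overlapping libraries. *POX02290*, annotated as pyruvate carboxylase, which makes oxaloacetate, had 335.03, 345.25 and 345.22 FPKM at GLU 4 h, against 245.7, 261.27 and 301.54 FPKM at MC 4 h. Other DNA-binding families supplied 10 of 33. HmbB (*POX04772*), a high-mobility-group protein, had 99.03, 98.39 and 96.19 FPKM at GLU 4 h, against 72.99, 63.95 and 67.26 FPKM at AV 48 h. Of the forkhead gene *POX02677*, WB 48 h held 9.88, 8.31 and 8.59 FPKM, against 4.74, 2.92 and 2.84 FPKM at NC 48 h. GLU also led for *POX04911*, with 34.05, 25.5 and 60.83 FPKM at 24 h, against 22.77, 19.4 and 12.24 FPKM at NC 4 h, and for *POX04567*, with 21.25, 37.55 and 25.6 FPKM at 24 h, against 14.28, 15.6 and 13.16 FPKM at AV 24 h. Replicates of both were unequal at GLU 24 h.

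Further members of these families, named after their values were seen, were highest at an early GLU or a later WB harvest. The APSES gene *POX05211*, of a fungal family with roles in development, had 141.78, 142.9 and 145.17 FPKM at GLU 4 h, against 110.3, 112.84 and 99.57 FPKM at AV 24 h and 73.43, 77.49 and 91.63 FPKM at NC 4 h, and its WB 24 h libraries held 111.08, 122.39 and 115.37 FPKM. The bZIP gene *POX08866* had 131.19, 108.21 and 127.26 FPKM at WB 24 h, against 53.13, 55.13 and 53.61 FPKM at NC 24 h. At 4 h the same gene was lower on WB (42.73, 37.26 and 47.07 FPKM) than on AV (82.91, 84.74 and 76.96) or MC (84.74, 96.48 and 75.96).

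Of the 12 genes of protein turnover and translation in the table, 11 were members and all 11 were highest at 4 h, 6 on GLU and 5 on WB. Those on GLU were methionyl aminopeptidase *POX06954* and regulatory subunits N1, N5, N6, N7 and N9 of the proteasome, the complex that degrades tagged proteins. Subunit N9 (*POX00172*) had 237.77, 243.99 and 243.56 FPKM at GLU 4 h, against 120.41, 120.11 and 124.66 FPKM at NC 4 h. Subunit N6 (*POX06709*) had 158.31, 156.29 and 168.27 FPKM at GLU 4 h, against 64.21, 64.31 and 77.01 FPKM at NC 4 h. In each of the 5 subunit genes the 3 GLU 4 h libraries lay close together and above every NC 4 h library. Subunit N1 (*POX05178*) had 100.04, 100.59 and 106.13 FPKM at GLU 4 h, against 49.64, 51.31 and 58.27 FPKM at NC 4 h. For N7 (*POX00828*) the values were 200.04, 206.88 and 207.88 FPKM at GLU 4 h, against 92.51, 97.78 and 109.73 FPKM at NC 4 h. For N5 (*POX08222*) they were 208.78, 216.65 and 222.05 FPKM at GLU 4 h, against 100.68, 97.27 and 109.49 FPKM at NC 4 h. The WB 4 h means were above those of NC 4 h too, at 210.6 and 121.7 FPKM for N9, 133.1 and 68.5 for N6, 135.3 and 100.0 for N7, 144.0 and 102.5 for N5, and 67.3 and 53.1 for N1, so levels above NC at 4 h were not particular to GLU.

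The 5 highest on WB at 4 h were ribosomal protein S19e (*POX06892*), Bud20 (*POX00148*, a ribosome assembly factor in budding yeast), a La-type RNA-binding protein (*POX05965*), methionyl aminopeptidase *POX07815* and a DnaJ family chaperone (*POX09671*). The S19e gene had 2728.85, 3570.12 and 2732.83 FPKM at WB 4 h, against 748.39, 778.73 and 629.75 FPKM at NC 4 h and 1062.11, 848.65 and 1366.68 FPKM at HEC 4 h. On GLU at the same time it had 1243.77, 1402.98 and 1594.87 FPKM, and at WB 48 h 364.47, 375.62 and 364.5 FPKM. The *Bud20* libraries were less even, with 95.77, 174.78 and 120.44 FPKM at WB 4 h, against 121.91, 106.67 and 87.72 FPKM at NC 4 h. *POX05965* had 86.18, 122.95 and 107.54 FPKM at WB 4 h, against 83.1, 76.6 and 79.64 FPKM at MC 4 h and 59.53, 57.51 and 36.11 FPKM at NC 4 h.

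**Figure D4:**
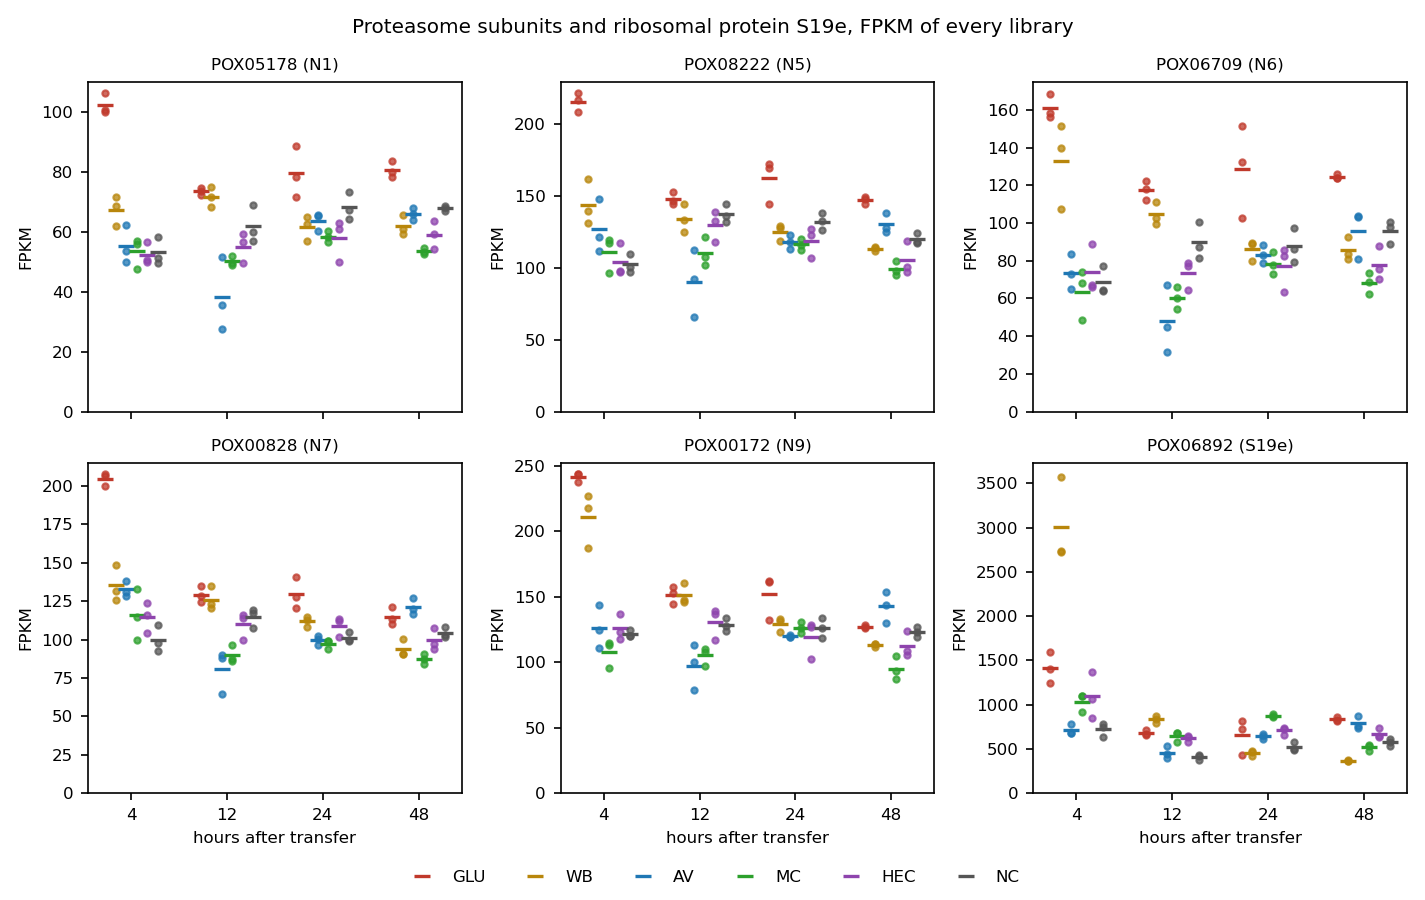
FPKM of 5 proteasome regulatory subunit genes (N1, N5, N6, N7, N9) and of the ribosomal protein S19e gene in every library against the hours after transfer, 1 panel per gene with its own axis from 0, points for libraries and dashes for the means of 3, 1 colour per carbon source. All 5 proteasome genes are highest at GLU 4 h, and S19e is highest at WB 4 h, where its libraries hold 2729 to 3570 FPKM.

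Transcription and chromatin machinery supplied 6 of 11 tabulated genes. A TFIIS-type elongation factor (*POX08057*) had 77.16, 84.37 and 71.12 FPKM at WB 4 h, another (*POX04613*) 46.73, 68.44 and 59.77 FPKM, and a gene of the RNA polymerase subunit Rpb10 type (*POX02132*) 70.66, 93.91 and 77.77 FPKM. Their margins were 1.55, 1.58 and 1.20. The TFIIH subunit gene *POX01062* was highest at GLU 4 h with a mean of 41.0 FPKM (SD 0.41). Its mean at WB 4 h was nearly the same, 40.9 FPKM (SD 6.08). YL1 (*POX04595*), of a chromatin remodelling complex, was highest at GLU 12 h with 41.88, 44.83 and 39.48 FPKM, against 20.65, 21.27 and 21.34 FPKM at AV 48 h. *POX08910*, with a SWIRM domain, had 355.5, 378.65 and 364.81 FPKM at GLU 48 h, against 302.96, 400.7 and 293.76 FPKM at NC 24 h, groups that overlapped.

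Set against NC at the same time, members differed from NC in the GLU and WB libraries in both directions. Past the thresholds of a limma fit over the 8898 genes averaging 1 FPKM or more (p at most 0.05, and at least 1 on the log2 fold change scale), on GLU 10 members were higher and 26 lower at 4 h (all genes 7.78% and 17.5%), 15 and 17 at 12 h (7.52% and 18.4%), 9 and 9 at 24 h (4.93% and 15.0%), and 14 and 4 at 48 h (5.27% and 9.1%). On WB, 11 were higher and 51 lower at 4 h (11.9% and 21.7%), 6 and 7 at 12 h (6.93% and 10.1%), 17 and 6 at 24 h (5.8% and 11.1%), and 7 and 0 at 48 h (4.5% and 6.36%). Between times on GLU, 44 members were higher and 2 lower at 48 h than at 4 h (30.2% and 7.55%), and on WB 60 and 9 (33.0% and 15.9%). With libraries rescaled by median-of-ratios factors the counts were 14 and 23 at GLU 4 h, 20 and 13 at GLU 12 h, 11 and 6 at GLU 24 h, 18 and 46 at WB 4 h, 34 and 15 for GLU over time and 51 and 18 for WB over time. The rule used these same levels, so the counts describe the members and nothing was read from them.

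The remaining comparisons, of AV, MC and HEC with NC and of 48 h with 4 h within a medium, were tested, and 111 members passed the filter on low values. The other 3 (*POX00130*, *POX03407* and *POX09460*) had means over 72 libraries of 0.83, 0.635 and 0.334 FPKM. Counts below are of members past these same thresholds, with Benjamini-Hochberg adjusted p over all 8898 genes. AV, MC and HEC were each compared with the same NC libraries. These comparisons were not free of the choice of members either. The rule kept each member's means on AV, MC, HEC and NC below its GLU or WB maximum. The tabulated genes had also been listed as differing from NC in these same libraries. The p-values, counts and directions below are therefore those of chosen genes. The scaling mattered throughout. In the deposited values the median of all genes was shifted against NC by −0.42 to −0.06 on the log2 scale over the 12 comparisons. After rescaling it lay between −0.03 and 0.02, so medians of members are given beside those of all genes.

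At 4 h, *POX07854* was called higher than NC on all 3 substrates, and *POX05429*, *POX00212*, *POX01196*, *POX02205* and *POX03812* were called lower. On AV 2 rose and 8 fell (all genes 4.24% and 5.1%), on MC 1 rose and 14 fell (4.96% and 8.22%) and on HEC 1 rose and 10 fell (2.75% and 6.9%). Median log2 fold changes of members were −0.19, −0.20 and −0.33, against −0.19, −0.22 and −0.33 over all genes. After rescaling the counts were 4 higher and 6 lower (AV), 5 and 7 (MC), and 5 and 4 (HEC). The direction of the HEC count thus turned with the scaling. *POX07854*, a bZIP gene, rose on all 3, with 203.75, 228.23 and 218.72 FPKM on AV, 231.53, 210.85 and 237.76 on MC, 209.74, 197.22 and 217.95 on HEC and 116.45, 92.21 and 87.97 in NC. Its log2 fold changes were 1.13 ± 0.13 (SE, adjusted p = 0.00121), 1.20 ± 0.14 (adjusted p = 0.000799) and 1.08 ± 0.14 (adjusted p = 0.00334). The groups did not overlap in any of them, and without NC 4 h replicate 3 the value on HEC was 1.0, just under the threshold.

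The largest fall at 4 h on AV and MC was that of *POX05429*, a DHHC zinc finger gene of the kind that encodes palmitoyltransferases, and on HEC those of *POX00212* and the Zn2Cys6 gene *POX09088* (−1.66 ± 0.25, adjusted p = 0.00505) were larger. *POX05429* had 32.38, 27.64 and 20.31 FPKM on AV, 23.58, 28.54 and 18.89 on MC, 53.28, 23.95 and 25.35 on HEC and 116.58, 105.18 and 71.9 in NC. The log2 fold changes were −1.83 ± 0.23 (adjusted p = 0.00164), −1.99 ± 0.22 (adjusted p = 0.000663) and −1.56 ± 0.33 (adjusted p = 0.0136). The WB gene *POX00212* fell on all 3 as well, by 1.75, 1.43 and 1.81 on the log2 scale, to 4.89, 4.17 and 3.95 FPKM on AV, 5.57, 6.94 and 4.63 FPKM on MC and 6.56, 3.66 and 2.84 FPKM on HEC, against 27.84, 20.78 and 8.22 in NC. NC 4 h replicate 3 was the lowest NC library for both genes. *POX00331* fell on AV (−1.40 ± 0.11, adjusted p = 0.000247) and MC (−1.46 ± 0.11, adjusted p = 0.000154), with 28.01, 30.61 and 28.05 FPKM on AV, 27.69, 26.59 and 28.32 on MC and 78, 72.24 and 83.11 in NC.

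At 12 h, *Bud20* was called higher and *POX07113* lower than NC on all 3 substrates, and in the deposited values HEC had the lowest share of calls among members and all genes alike. On AV 1 rose and 10 fell (all genes 3.17% and 7.19%), on MC 1 rose and 5 fell (4.47% and 9.54%) and on HEC 2 rose and 1 fell (2.53% and 1.56%). Medians of members were −0.41, −0.35 and −0.17, against −0.36, −0.34 and −0.16 over all genes, and rescaling gave 3 higher and 1 lower (AV), 4 and 1 (MC), and 3 and 1 (HEC). The count on AV rested on 2 unlike libraries, being 22 without AV 12 h replicate 1 and 5 without AV 12 h replicate 3, and the summed conidiation genes ran from 5623 to 16634 FPKM over the AV libraries, against 13238 to 20723 FPKM in NC. The count on HEC was 5 without HEC 12 h replicate 1 and 1 without HEC 12 h replicate 3. *Bud20* (*POX00148*) rose on all 3, with 44.71, 69.96 and 119.69 FPKM on AV, 51.15, 71.85 and 43.03 on MC, 49.14, 52.87 and 69.01 on HEC and 23.86, 27.26 and 26.22 in NC. Log2 fold changes were 1.45 ± 0.33 (adjusted p = 0.0242), 1.04 ± 0.18 (adjusted p = 0.00145) and 1.10 ± 0.14 (adjusted p = 0.00307). On MC the value missed the threshold without MC 12 h replicate 2 (0.84) or NC 12 h replicate 1 (0.99), and on HEC without HEC 12 h replicate 3 (0.96).

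The C2H2 gene *POX07113*, highest at GLU 48 h (34.98, 31.9 and 33.01 FPKM), fell in all 3 comparisons at 12 h. It had 8.9, 4.98 and 5.05 FPKM on AV, 2.62, 2.38 and 2.67 on MC, 6.41, 7.49 and 5 on HEC and 22.47, 15.8 and 13.62 in NC. The log2 fold changes were −1.34 ± 0.27 (adjusted p = 0.021), −2.33 ± 0.18 (adjusted p = 5.67e-05) and −1.31 ± 0.20 (adjusted p = 0.00568), and no libraries overlapped. *POX03954*, a Zn2Cys6 gene, fell most on AV (−1.42 ± 0.41, adjusted p = 0.0375), with 13.52, 5.9 and 3.52 FPKM on AV and 24.63, 18.82 and 16.2 FPKM in NC. Its 3 AV libraries were spread over a wide range.

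At 24 h, bZIP genes were called higher on each substrate and *PrtT* lower on AV and MC, and in the deposited values MC had the highest share of calls among members and all genes alike. On AV 4 rose and 2 fell (all genes 4.12% and 6.27%), on MC 3 rose and 19 fell (5.95% and 18.2%) and on HEC 2 rose and 3 fell (3.45% and 4.64%). Medians of members were −0.01, −0.33 and −0.24, against −0.06, −0.42 and −0.26 over all genes, and after rescaling the counts were 4 and 1, 6 and 5, and 4 and 2. *POX00972*, a bZIP gene, had 317.18, 344.09 and 235.76 FPKM on AV, against 78.46, 75.97 and 84.99 in NC (1.88 ± 0.14, adjusted p = 3.56e-05), and on AV another bZIP gene, *POX05374*, had 1052.94, 1040.82 and 878.36 FPKM, against 341.29, 380.77 and 430.03 in NC (1.37 ± 0.12, adjusted p = 8.27e-05). Both bZIP genes were called on AV only, and the difference between substrates was not tested. The count of 6 on AV was 3 without AV 24 h replicate 2, and that on HEC was 8 without HEC 24 h replicate 3.

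On MC at 24 h, *POX07113* again fell furthest, with 5.09, 5.81 and 4.3 FPKM on MC, against 22.01, 27.06 and 23.17 in NC (−2.05 ± 0.13, adjusted p = 5.43e-06). *PrtT* had 23.23, 23.62 and 22.87 FPKM on MC, against 79.41, 90.23 and 91.67 in NC (−1.86 ± 0.08, adjusted p = 1.11e-06), and on AV 48.34, 37.16 and 43.67 FPKM (−1.0 ± 0.11, adjusted p = 0.000276), where −0.97 after rescaling and −0.91 without AV 24 h replicate 2 missed the threshold, as did the values without NC 24 h replicate 2 (−0.98) or 3 (−0.97). *Atf1* (*POX03016*) had 207.12, 243.33 and 245.48 FPKM on MC, against 597.07, 498.69 and 524.19 in NC (−1.22 ± 0.10, adjusted p = 2.31e-05). On HEC, the Zn2Cys6 gene *POX06759* had 15.58, 16.64 and 17.59 FPKM, against 80.64, 90.82 and 73.98 in NC (−2.23 ± 0.11, adjusted p = 1.56e-05). In all of these the groups did not overlap. *POX07854* rose on MC (1.32 ± 0.09, adjusted p = 6.67e-06) and HEC (1.25 ± 0.14, adjusted p = 0.000503) with 200.01, 178.09 and 193.56 FPKM on MC, 152.63, 212.54 and 184.32 on HEC and 82.59, 70.34 and 74.76 in NC, and the largest rise on HEC was that of *POX09800*, with 63.38, 58.13 and 53.53 FPKM on HEC and 20.04, 23.19 and 21.88 in NC (1.39 ± 0.11, adjusted p = 0.000127).

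At 48 h AV and MC moved in opposite directions for 1 of the most distinctive genes. On AV 5 members rose and 9 fell (all genes 5.95% and 8.92%), on MC 3 rose and 10 fell (4.32% and 14.5%) and on HEC 3 rose and 2 fell (4.96% and 3.48%). Medians of members were −0.10, −0.34 and −0.20, against −0.19, −0.41 and −0.22 over all genes, and rescaled counts were 7 and 5, 4 and 3, and 4 and 1. The C2H2 gene *POX04769* had 111.96, 111.61 and 120.58 FPKM on AV, 6.74, 7.24 and 7.56 on MC, 11.06, 9.97 and 12.11 on HEC and 25.14, 23.98 and 27.28 in NC. Its log2 fold changes were 2.13 ± 0.08 on AV (adjusted p = 4.45e-06), −1.69 ± 0.09 on MC (adjusted p = 1.34e-05) and −1.14 ± 0.11 on HEC (adjusted p = 0.000367), where after rescaling −0.93 missed the threshold of the fold. The direct difference of AV and MC, compared after the values had been seen, was 3.82 ± 0.09 (adjusted p = 1.58e-07).

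Also at 48 h, the CENP-B type gene *POX09800* rose on all 3 substrates, with 45.91, 45.54 and 42.83 FPKM on AV, 60.56, 58.88 and 56.04 on MC, 58.37, 58.55 and 48.03 on HEC and 14.12, 9.77 and 15.4 in NC. The log2 fold changes were 1.72 ± 0.16 (adjusted p = 0.000167), 2.10 ± 0.16 (adjusted p = 4.41e-05) and 2.01 ± 0.17 (adjusted p = 0.000224). *Bud20* rose with it, to 62.27, 93.81 and 69.55 FPKM on AV, 67.2, 76.54 and 56.14 FPKM on MC and 77, 125.76 and 110.05 FPKM on HEC, against 29.95, 28.81 and 32.68 in NC. The Zn2Cys6 gene *POX02030* had 16.69, 12.67 and 12.74 FPKM on AV, against 60.95, 72.48 and 70.84 in NC (−2.21 ± 0.13, adjusted p = 2.43e-05), while MC (44.39, 45.05 and 35.22) and HEC (49.97, 51.1 and 42.62) did not pass the threshold for it. *PrtT* fell on AV (−1.77 ± 0.18, adjusted p = 0.000267) and MC (−1.28 ± 0.12, adjusted p = 0.000126), with 18.6, 13.47 and 11.58 FPKM on AV, 22.04, 20.57 and 18.71 on MC and 42.98, 56.89 and 54.62 in NC, and after rescaling the MC value of −0.89 missed the threshold. *POX02452* rose on AV and MC (386.99, 443.2 and 479.76, and 516.81, 541.18 and 500.07 FPKM, against 198.62, 197.87 and 212.17 in NC), and TFIIS-type *POX04613* on HEC only by the thresholds (1.01 ± 0.19, adjusted p = 0.00433). Without HEC 48 h replicate 1 the count on HEC was 8.

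**Figure D5:**
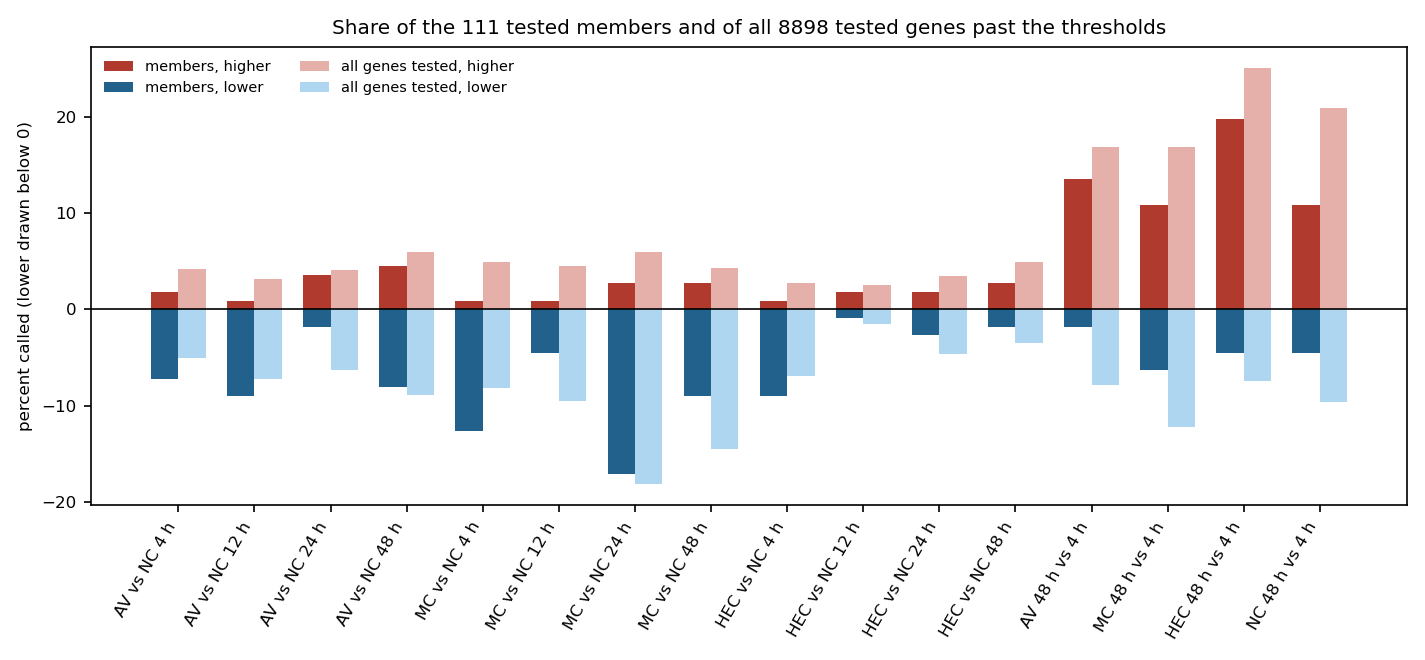
Percent of tested members and of all tested genes that were called in each of the 16 tested comparisons, paired bars, with genes higher in the first-named condition above 0 and genes lower below 0. MC at 24 h has the most members called lower against NC (19 of 111), and the bars of members lie near those of all genes in most comparisons.

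Over the 12 comparisons with NC, 44 of 111 members were called at least once, while 47.3% of all tested genes were. In none of the 12 were 67 members called. Members came from a list of genes differentially expressed against NC and were then chosen by the rule, and all tested genes were not. Of the 44, 32 were called only lower, 8 only higher and 4 in both directions. After rescaling the split was 14 only lower, 18 only higher and 3 in both, so the lean towards lower calls rested on the scaling. Summed over the 12 comparisons there were 28 higher and 93 lower calls of members (76.9% lower), against 4525 and 8406 of all genes (65.0% lower). After rescaling there were 53 and 37 of members (41.1% lower). Shares of all genes are given for the deposited values only. The rescaled counts of members, here and elsewhere, therefore cannot be set against them. *POX07113* was called lower in 9, *POX02205* lower in 7, *Bud20* higher in 7, *POX07854* higher in 6, *POX09800* higher in 5, and *POX03954* and *POX06759* lower in 5. Zn2Cys6 genes gave 25 of the called members out of 52, of which 24 were called lower at least once and 3 higher. Among the 11 genes of protein turnover and translation, only *Bud20* was called in any, and the proteasome subunit genes had log2 fold changes of between −0.96 and 0.41 in all 12. The C2H2 family gave 5 called of 8 and bZIP 4 of the 9 tested. After rescaling, 4 of the 9 calls of *POX07113* (MC 4 h, AV 12 h, AV 48 h and MC 48 h) and 5 of the 7 of *POX02205* missed the fold threshold, with log2 fold changes of −1.0 to −0.69 for *POX07113* and −0.90 to −0.65 for *POX02205*.

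Within media, 48 h was compared with 4 h. On AV 15 members rose and 2 fell (all genes 16.9% and 7.86%), on MC 12 rose and 7 fell (16.9% and 12.2%), on HEC 22 rose and 5 fell (25.1% and 7.48%) and in NC 12 rose and 5 fell (20.9% and 9.59%). Medians of members were 0.26, 0.09, 0.30 and 0.23, against 0.36, 0.12, 0.45 and 0.29 over all genes, and rescaled counts were 9 and 6, 8 and 11, 9 and 9, and 8 and 7. In the same 4 comparisons 10 or 11 of the 12 conidiation genes rose, with median log2 fold changes of 3.60 to 4.29. *POX02030* rose in every medium, with 44.39, 45.05 and 35.22 FPKM at MC 48 h against 2.92, 2.63 and 3.43 at MC 4 h (3.41 ± 0.14, adjusted p = 5.43e-08), 49.97, 51.1 and 42.62 at HEC 48 h against 2.82, 4 and 2.8 at HEC 4 h (3.55 ± 0.15, adjusted p = 1.32e-07), and 60.95, 72.48 and 70.84 at NC 48 h against 4.05, 4.1 and 5.78 at NC 4 h (3.62 ± 0.15, adjusted p = 2.2e-06). On AV the rise was 1.81 ± 0.14 (adjusted p = 1.03e-05), with 16.69, 12.67 and 12.74 FPKM at 48 h against 3, 3.04 and 3.77 FPKM at 4 h.

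*POX00212* had its largest rise on AV, with 42.74, 43.8 and 33.25 FPKM at 48 h, against 4.89, 4.17 and 3.95 at 4 h (2.93 ± 0.14, adjusted p = 3.35e-07), and rose on MC and HEC too. *POX04769* rose on AV (1.98 ± 0.12, adjusted p = 2.42e-06; 25.26, 26.47 and 34.08 FPKM at 4 h) and fell on MC (−2.20 ± 0.16, adjusted p = 2.4e-06; 37.52, 28.81 and 45.22 FPKM at 4 h). The homeobox gene *POX02204* fell on AV to 0.12, 0.12 and 0.04 FPKM at 48 h, against 1.77, 1.66 and 1.81 FPKM at 4 h (−1.33 ± 0.16, adjusted p = 0.000113), values low enough that each rests on few reads. *POX01486* fell on HEC to 13.15, 13.09 and 15.17 FPKM at 48 h, against 36.39, 34.14 and 48.51 at 4 h (−1.44 ± 0.15, adjusted p = 4.48e-05), and pyruvate carboxylase (*POX02290*) fell on MC to 59.68, 73.09 and 75.39, against 245.7, 261.27 and 301.54 at 4 h (−1.94 ± 0.13, adjusted p = 1.4e-06). Of the 4 media tested, *Bud20* was called lower in NC only, with 29.95, 28.81 and 32.68 FPKM at 48 h, against 121.91, 106.67 and 87.72 at 4 h (−1.75 ± 0.14, adjusted p = 5.18e-05). On WB, which was described and not tested, it had 18.54, 22.31 and 22.07 FPKM at 48 h, against 95.77, 174.78 and 120.44 at 4 h.

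Tested directly, the difference from NC changed between 48 h and 4 h for 13 members on AV (8 upward and 5 downward, all genes 14.0%), 14 on MC (7 and 7, 17.4%) and 17 on HEC (14 and 3, 11.1%), and the rescaled numbers were 7 and 5 (AV), 10 and 6 (MC), and 8 and 5 (HEC). *Bud20* gave the largest on HEC (2.38 ± 0.31, adjusted p = 0.00126) and was among those on AV and MC. *POX04769* gave the largest on AV (2.13 ± 0.27, adjusted p = 0.000236) and on MC (−2.05 ± 0.29, adjusted p = 0.00033), in opposite directions. *POX03812*, a DHHC zinc finger gene, came next on AV (2.0 ± 0.30, adjusted p = 0.000647) and MC (1.82 ± 0.29, adjusted p = 0.000736), with 30.45, 34.95 and 30.93 FPKM at AV 48 h against 20.34, 24.94 and 21.72 at NC 48 h, and 18.46, 16.42 and 14.6 at AV 4 h against 67.44, 51.19 and 32.08 at NC 4 h. NC 4 h replicate 3 was the lowest NC 4 h library for *POX03812*. The count on AV was 21 without NC 4 h replicate 3, and that on HEC was 11 without NC 4 h replicate 1.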

How the data were processed

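RNA-seq values of 72 libraries of *Penicillium oxalicum* Δ*PoxKu70* (6 media, 4 times, 3 replicates each) were analysed. The deposited values were FPKM, made by the authors, whose methods name SOAPnuke, HISAT, Bowtie2 and RSEM. The submitters' processing notes list BWA 0.7.10-r789, Bowtie2 2.1.0, RSEM 1.2.12 and DESeq2, so the sources disagree. Read counts were not used here, and the depth of each library is unknown. A gene missing from a library was set to 0. Values under 1 FPKM rest on few reads.

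Members and lists were chosen with earlier results of these data known. Groups were taken from the labels, which give no batch. The paper calls the replicates biological. The labels do not say whether they were separate cultures, so p-values measure the spread between these samples. The deleted gene was not checked, because its identifier is not given in the sources used here. Tests used limma 3.58.1 in R 4.3.3 (trend) on log2(FPKM + 1) for the 8898 genes averaging 1 FPKM or more, each comparison fitted on its own libraries. Fold changes on this scale understate those of low genes. A gene was called at an unadjusted p of at most 0.05 with a log2 fold change of at least 1. The fit was tested on simulated data. Tables were made with Python 3.11.15, numpy 2.4.6 and pandas 2.3.3.

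The text names the listed regulators and the translation and machinery genes, and the 5 highest and 5 widest-margin genes of each substrate. It also names the largest called rise and fall of each comparison whose libraries did not overlap. Genes at the thresholds, the 2 largest interactions and pairs with consecutive identifiers are named as well. Genes such as *POX09691* and *POX02677* were named after their values were seen. Alternatives were a rescaling by median-of-ratios factors, a pseudocount of 0.1, other filters, a replicate block and leaving out each replicate. At 12 h on AV the same-numbered libraries of AV and NC deviated together (correlations of 0.642, 0.165 and 0.475).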

Additional observations from a re-analysis of the deposited data

Results flagged for a closer look

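The C2H2 gene *POX04769* differed between AV and MC at 48 h by 3.82 on the log2 scale (SE 0.09, limma adjusted p = 1.58e-07), with 111.96, 111.61 and 120.58 FPKM on AV and 6.74, 7.24 and 7.56 FPKM on MC. It drew attention because it was higher than NC in all 3 AV libraries and lower than NC in all 3 MC libraries at that time. The direct comparison of the 2 substrates was chosen after the values had been seen.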

How the results depend on the processing

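The number of members was 107 to 123 when a replicate was left out of the means and 107 with rescaled libraries, of which 97 were shared. Counts of calls against NC kept within 1.5 times of those reported under every alternative other than those below. With a pseudocount of 0.1 the counts were 18 (AV 12 h), 10 (MC 12 h) and 9 (HEC 24 h), and with rescaling 4 (AV 12 h), 11 (MC 24 h) and 7 (MC 48 h). A similar count did not mean the same genes. At 4 h the rescaled values kept 8 of 10 calls on AV, 8 of 15 on MC and 5 of 11 on HEC. At 12 h they kept 2 of 11, 2 of 6 and 3 of 3, and at 24 h 5 of 6, 8 of 22 and 4 of 5. At 48 h they kept 10 of 14, 6 of 13 and 4 of 5. Leaving out 1 library at a time gave 5 to 22 on AV at 12 h, 4 to 8 on MC and 1 to 5 on HEC. At 24 h the ranges were 3 to 9 on AV, 18 to 24 on MC and 5 to 8 on HEC, and at 48 h 13 to 15, 11 to 16 and 4 to 8. At 4 h they were 9 to 13, 12 to 18 and 9 to 13. Over time they were 16 to 17 on AV, 18 to 21 on MC, 23 to 27 on HEC and 15 to 21 in NC, and for the change of the difference from NC 11 to 21 on AV, 12 to 20 on MC and 11 to 19 on HEC. Fold changes were checked for the largest called rise and fall of each comparison and for some further genes. None of these reversed, while 16 settings and 22 leave-outs took 1 below a threshold, against 434 and 428 that kept it. Fold changes of *POX00331*, *POX09088*, *POX05374*, *Atf1*, *POX04613* and *POX02290* were not checked in this way. Nor were single genes' changes of the difference from NC. The causes were not tested.

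The fit with the replicate number as a block was run for every comparison. It gave 11 calls on AV at 12 h and 10 at 4 h, and kept every count within 1.5 times. Only for AV and NC at 12 h did every pair of same-numbered libraries correlate above 0.1. Over 30 comparisons the correlations of same-numbered libraries averaged 0.033 (−0.374 to 0.642). Choices made after the data were seen were the direct comparison of AV and MC and leaving out single libraries that stood apart. The paper's text gives a total of clean reads over all libraries. The depth of each library is unknown, so precision at low FPKM could not be given. A rough relative depth, estimated from 141 genes with low values, had a median of 1.0. It ran from 0.57 (GLU 48 h replicate 1) to 1.07 (HEC 4 h replicate 3), and was 0.65 for NC 48 h replicate 1.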

Other observations

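Rate-limiting enzymes of glycolysis and the TCA cycle, a list of 12 with hexokinase, phosphofructokinase and citrate synthase genes among them, are outside the set of TF genes. Of the 11 tested, 5 were higher and 2 lower on GLU than in NC at 4 h (all genes 7.78% and 17.5%), with a median log2 fold change of 0.97. The summed level of the list at 4 h was not highest on GLU. Its median was 4068 FPKM on GLU, 4535 on AV, 4682 on MC, 3560.5 on HEC, 3176 on WB and 3355 in NC. Between 48 h and 4 h, 7 were lower and 1 was higher on GLU (median −1.14, all genes 7.55% lower and 30.2% higher). On WB 5 were lower and 2 higher (median −0.79, all genes 15.9% and 33.0%), and on MC 4 and 1 (−0.95, 12.2% and 16.9%). In NC 3 were lower and 1 higher (−0.47, 9.59% and 20.9%). On AV 2 were lower and 1 higher (−0.13, 7.86% and 16.9%), and on HEC 2 and 1 (−0.29, 7.48% and 25.1%). These are values of another gene list beside the 4 h maxima of the proteasome subunits on GLU, and no relation between the lists was tested.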
